A study of Mus musculus with 16 samples.

Results

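The genes described here are the transcription factor gene Nfe2l2, which encodes NRF2, its inhibitor gene Keap1, and 8 genes that NRF2 is known to activate: Nqo1, Gclc, Gclm, Srxn1, Txnrd1, Hmox1, Gstm3 and Slc7a11. They were taken as the rows of the deposited table whose symbol is one of these names, and 10 of 30199 genes in the table were found that way. The table holds liver messenger RNA levels in 16 female mice aged 5 months, with 1 library per mouse and 4 mice per genotype. The genotypes were Ncoa5+/-Tip30+/-, with a heterozygous deletion at both loci, Ncoa5+/- with intact Tip30, Tip30+/- with intact Ncoa5, and wild type. The sources used here name neither the mouse strain nor the deleted exons. The RNA came from a frozen piece of whole liver, which the labels describe as mainly hepatocytes.

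NRF2 is the main sensor-driven activator of antioxidant and detoxifying genes in the liver. In unstressed cells KEAP1 holds NRF2 in the cytoplasm and hands it to a CUL3 ubiquitin ligase for degradation. Electrophiles and oxidants modify KEAP1, after which NRF2 builds up, pairs with small MAF proteins and binds antioxidant response elements near genes for glutathione synthesis, thioredoxin recycling, quinone reduction and glutathione conjugation. Regulation is thus largely at the protein level, which messenger RNA does not measure.

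The result turns on Nfe2l2, Srxn1 and Gstm3, so the promoter windows of these genes are shown, from 250 bases before to 50 bases after the transcript start in RefSeq on GRCm38.p6. RefSeq windows were matched for 8 of the 10 genes, all but Gclc and Hmox1, with 10 windows in all since Txnrd1 has 3. Capitals mark matches to TGACNNNGC, used here as the core letters of the antioxidant response element, searched on both strands. Other spellings of the element were not searched, so lower case does not mean that a window lacks them. Nfe2l2 lies on the minus strand and its window is chr2:75704614-75704913. Srxn1 lies on the plus strand, at chr2:152105274-152105573, and Gstm3 on the minus strand, at chr3:107969125-107969424.
Nfe2l2: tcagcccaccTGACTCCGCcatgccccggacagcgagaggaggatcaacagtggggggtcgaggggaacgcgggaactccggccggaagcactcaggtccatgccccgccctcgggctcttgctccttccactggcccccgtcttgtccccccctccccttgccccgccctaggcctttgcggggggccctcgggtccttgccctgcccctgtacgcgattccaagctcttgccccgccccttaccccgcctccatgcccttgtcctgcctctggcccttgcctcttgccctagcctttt
Srxn1: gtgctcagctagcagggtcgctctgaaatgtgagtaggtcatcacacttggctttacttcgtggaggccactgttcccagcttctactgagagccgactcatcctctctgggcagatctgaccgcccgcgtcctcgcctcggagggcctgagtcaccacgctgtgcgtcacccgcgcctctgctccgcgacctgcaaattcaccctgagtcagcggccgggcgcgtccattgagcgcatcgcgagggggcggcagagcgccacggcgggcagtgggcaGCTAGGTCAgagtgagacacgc
Gstm3: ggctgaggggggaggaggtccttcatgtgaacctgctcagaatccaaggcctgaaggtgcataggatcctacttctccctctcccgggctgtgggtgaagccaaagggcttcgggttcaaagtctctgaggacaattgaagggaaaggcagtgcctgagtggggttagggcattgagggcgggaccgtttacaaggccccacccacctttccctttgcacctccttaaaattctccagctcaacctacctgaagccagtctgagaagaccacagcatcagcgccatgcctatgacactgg
In the Nfe2l2 window the match is TGACTCCGC, which begins 240 bases before the start. In the Srxn1 window it is GCTAGGTCA, read on the opposite strand, 28 bases after the start, and the Gstm3 window holds these letters on neither strand. Gclm and 1 of the Txnrd1 windows also hold a match. The letters occur in 12.4% of all 32817 windows of this length, so a match is a description of the sequence and not a binding site.

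Sequencing depth was 24740706 to 31987259 assigned reads in Ncoa5+/-Tip30+/- livers, 26262744 to 28895680 in Ncoa5+/- livers, 30574997 to 35978055 in Tip30+/- livers and 26058724 to 37939978 in wild-type livers. Htatip2, the gene of Tip30, averaged 977 ± 104 normalized counts in Ncoa5+/-Tip30+/- livers and 781 ± 139 in Tip30+/- livers, against 2467 ± 358 in Ncoa5+/- livers and 2058 ± 179 in wild-type livers (SD, n = 4 each). Ncoa5 averaged 391 ± 23.5 normalized counts in Ncoa5+/-Tip30+/- livers and 381 ± 35.1 in Ncoa5+/- livers, against 408 ± 29.7 in Tip30+/- livers and 426 ± 42.1 in wild-type livers. Reads of Ncoa5 therefore do not check the Ncoa5 genotype, and results by that deletion rest on the labels. In 4 livers, Ncoa5+/- 1 and 4 and wild type 1 and 2, the gene Zhx2 stood at 8.77 to 26.3 normalized counts, against at least 166.5 in the other 12, and some results for Nfe2l2, Nqo1 and Hmox1 are also given without them. Nothing in the labels pairs mice across genotypes or names litters.

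Nfe2l2, Srxn1 and Gstm3 were higher in livers with the Ncoa5 deletion than in livers without it. Averaged over Tip30 genotype, 8 livers against 8, Nfe2l2 was 1.58-fold higher, Srxn1 1.40-fold higher and Gstm3 2.19-fold higher. These were the 3 of 9 tested genes of the set that passed an adjusted p of 0.05 in that comparison, all 3 higher, while 7.89% of all 15263 tested genes passed and 3.94% passed with a higher level. With the Tip30 deletion 0 of the 9 passed by limma, edgeR or DESeq2 (0.131% of all genes by limma). Slc7a11 was nearly silent in every genotype.

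Nfe2l2 read 1996, 2688, 2472 and 2047 normalized counts in the 4 Ncoa5+/-Tip30+/- livers and 2099, 1614, 2069.6 and 1899 in the 4 Ncoa5+/- livers. It read 1398, 1251, 1462 and 1359.9 normalized counts in the 4 Tip30+/- livers and 1339.8, 1265, 1283 and 1229 in the 4 wild-type livers. The 8 livers with the Ncoa5 deletion all lay above the 8 without it, with a lowest value of 1614 and a highest value of 1462 on the other side. Among all genes tested, 120 separated these livers upwards in the same complete way, or 0.786%. The average difference was 0.66 ± 0.08 on the log2 scale (SE, 95% confidence interval 0.50 to 0.82), with an adjusted p of 6.21e-05 in limma with Benjamini-Hochberg adjustment.

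**Figure D1:**
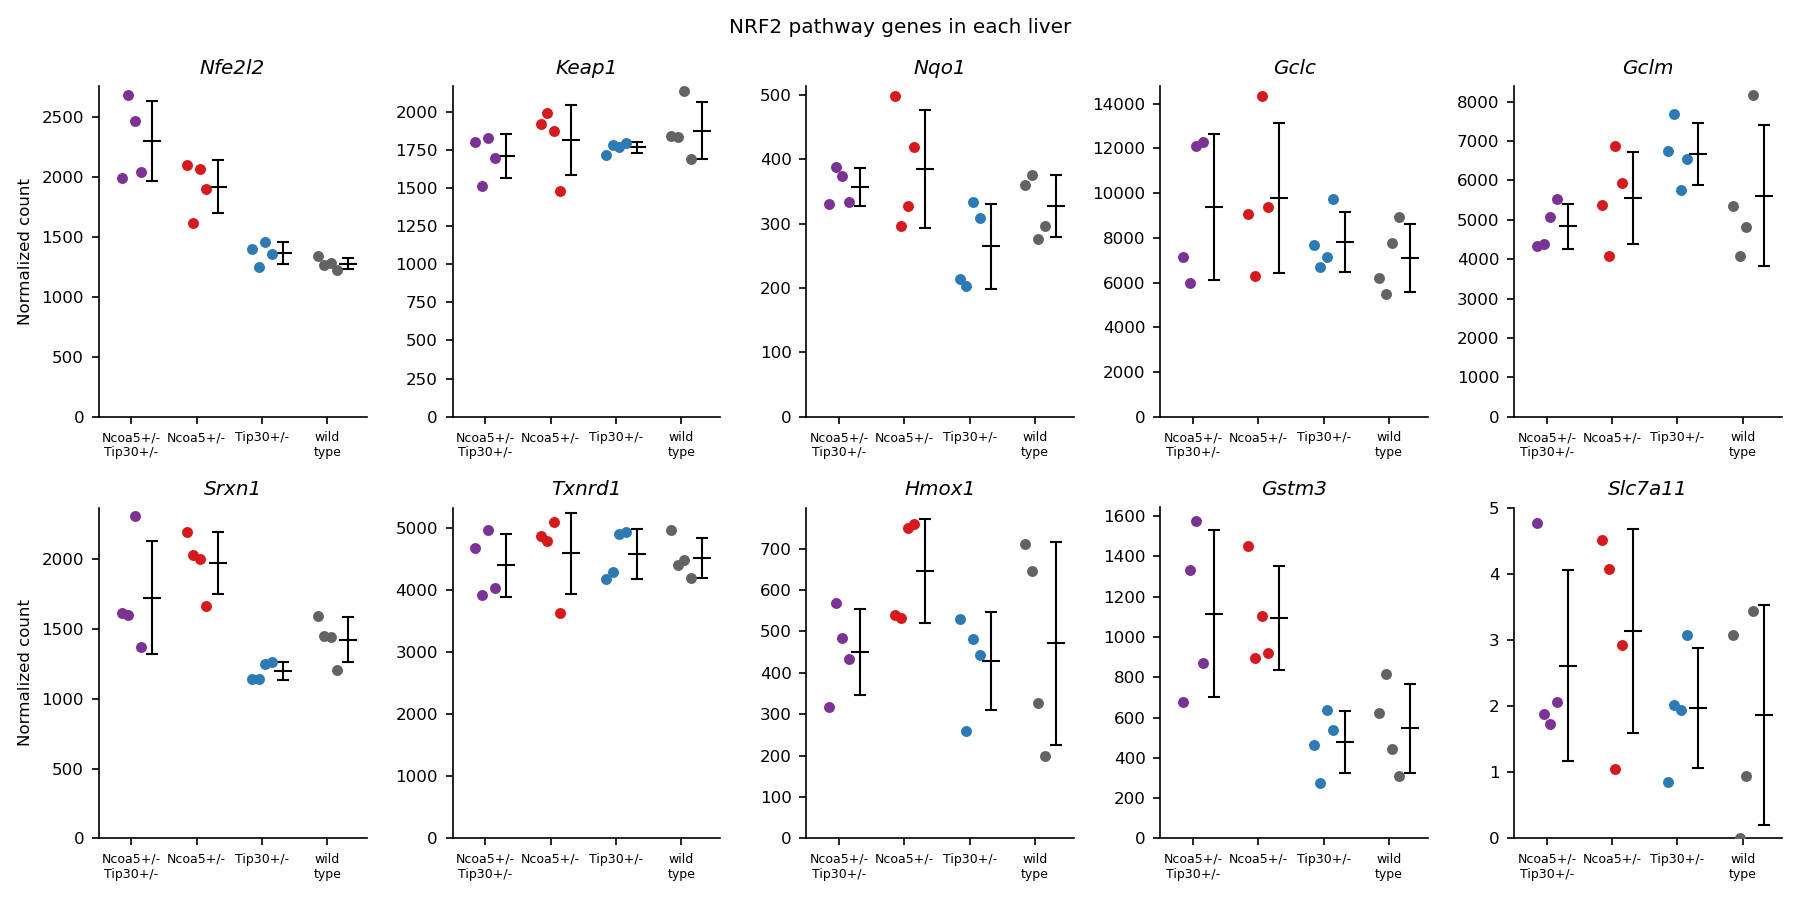
Normalized count of each of the 10 genes (vertical axis, from 0, with its own scale in each panel) in every liver, by genotype; points are livers and bars are the mean ± SD of 4. Nfe2l2 of all 8 livers with the Ncoa5 deletion lies above the other 8, and Slc7a11 stays under 5 normalized counts.

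By genotype, Nfe2l2 averaged 2301 ± 335 normalized counts in Ncoa5+/-Tip30+/- livers, 1921 ± 223 in Ncoa5+/- livers, 1368 ± 88.9 in Tip30+/- livers and 1279 ± 46.2 in wild-type livers (SD, n = 4 each). Both single steps of the Ncoa5 deletion passed the test. Ncoa5+/-Tip30+/- livers exceeded Tip30+/- livers 1.67-fold (adjusted p = 0.00168, limma), and Ncoa5+/- livers exceeded wild-type livers 1.49-fold (log2 0.58 ± 0.11 SE, adjusted p = 0.0177, limma). Against wild type, Ncoa5+/-Tip30+/- livers were 1.78-fold higher (log2 0.84 ± 0.11, adjusted p = 0.000458, limma). The difference of Ncoa5+/- from wild type lost the call when Ncoa5+/- 1, 3 or 4 or wild type 3 or 4 was left out, with an adjusted p of up to 0.0704. It was also lost without the 4 livers low in Zhx2 (log2 0.54, adjusted p = 0.236) and with the groups fitted alone (adjusted p = 0.0556).

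The neighbours in the order of Nfe2l2 levels were closer together. Ncoa5+/-Tip30+/- livers stood 0.26 ± 0.11 above Ncoa5+/- livers on the log2 scale (SE, unadjusted p = 0.0309, adjusted p = 0.514, limma), with overlapping values. Tip30+/- livers stood 0.10 ± 0.11 above wild-type livers (adjusted p = 0.871, limma), also with overlapping values. Averaged over Ncoa5 genotype, the difference with the Tip30 deletion was 0.18 ± 0.08 (unadjusted p = 0.0358, adjusted p = 0.379, limma). None of these differences passed the threshold.

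Keap1, whose product marks NRF2 for degradation, averaged 1709 ± 144 normalized counts in Ncoa5+/-Tip30+/- livers, 1816 ± 230.4 in Ncoa5+/- livers, 1765 ± 35.1 in Tip30+/- livers and 1874 ± 186 in wild-type livers. The values of the 4 genotypes overlapped, and 16 livers spanned 1479 to 2135. With the Ncoa5 deletion the average difference was -0.05 on the log2 scale, with a 95% confidence interval of -0.21 to 0.11. Of its exon bases, 10.9% overlap Gm16754 on the other strand, and without strand marking those reads cannot be assigned to either gene.

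Srxn1 encodes sulfiredoxin, which reactivates hyperoxidized peroxiredoxins. It read 1618, 1598, 2312 and 1374 normalized counts in Ncoa5+/-Tip30+/- livers and 2195, 2027, 2004 and 1662 in Ncoa5+/- livers. It read 1140.1, 1143, 1249.5 and 1261 in Tip30+/- livers and 1594.5, 1450.2, 1439.8 and 1206 in wild-type livers. The Ncoa5+/- livers all lay above the wild-type livers and the Ncoa5+/-Tip30+/- livers all above the Tip30+/- livers, but Ncoa5+/-Tip30+/- livers overlapped wild type. The average difference with the Ncoa5 deletion was 0.49 ± 0.10 on the log2 scale (SE, adjusted p = 0.00734, limma). With the Tip30 deletion it was -0.23 ± 0.10 (unadjusted p = 0.0313, adjusted p = 0.363, limma), with overlapping livers.

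Gstm3 encodes a mu-class glutathione transferase, which joins glutathione to electrophiles. It read 676, 1335, 1578 and 869 normalized counts in Ncoa5+/-Tip30+/- livers and 1454, 898, 1106 and 918 in Ncoa5+/- livers. It read 461, 277, 639 and 538 in Tip30+/- livers and 623, 817, 443 and 307 in wild-type livers. Each liver of Ncoa5+/- lay above each wild-type liver, while Ncoa5+/-Tip30+/- 1 lay within the wild-type range. The average difference with the Ncoa5 deletion was 1.13 ± 0.24 on the log2 scale (SE, 95% confidence interval 0.63 to 1.64, adjusted p = 0.0121, limma). Its level is uncertain in part, because 13.8% of 100-base windows of its transcripts also occur in other genes, among them Gstm1 and Gstm6.

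Between pairs of genotypes, Srxn1 and Gstm3 had large differences that did not pass the threshold over all genes with limma. Against wild type, Ncoa5+/- livers differed by 0.47 ± 0.14 in Srxn1 (adjusted p = 0.172, limma) and by 1.06 ± 0.34 in Gstm3 (adjusted p = 0.233, limma) on the log2 scale. Ncoa5+/-Tip30+/- livers exceeded wild-type livers by 1.04 ± 0.34 in Gstm3 (adjusted p = 0.0983, limma; 0.0227 with DESeq2). Against Tip30+/- livers the same livers differed by 0.50 ± 0.14 in Srxn1 (adjusted p = 0.0555, limma) and by 1.20 ± 0.34 in Gstm3 (adjusted p = 0.0636, limma). In that comparison Srxn1 passed with DESeq2 (0.0164), edgeR (0.0391), upper-quartile scaling (0.0454) and the tag range as a covariate (0.035), and Gstm3 with DESeq2 (0.00476) and the tag range (0.0481). With a liver left out, Srxn1 passed without Ncoa5+/-Tip30+/- 4 (0.0237) and Gstm3 without Ncoa5+/-Tip30+/- 1 (0.0495).

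Nqo1 encodes a quinone reductase and is widely used as a readout of NRF2 activity. It read 330, 388, 374 and 334 normalized counts in Ncoa5+/-Tip30+/- livers and 499, 296, 327 and 419 in Ncoa5+/- livers. It read 214, 203, 334.5 and 308 in Tip30+/- livers and 360.0, 376, 276 and 297 in wild-type livers. The genotypes overlapped, and within Ncoa5+/- and wild type the higher pair of livers was the pair low in Zhx2. The average difference with the Ncoa5 deletion was 0.34 ± 0.13 on the log2 scale (SE, unadjusted p = 0.018) and missed the threshold after adjustment (adjusted p = 0.109, limma). Ncoa5+/-Tip30+/- livers stood 0.46 ± 0.18 above Tip30+/- livers (adjusted p = 0.146, limma), and Tip30+/- livers differed from wild type by -0.33 (adjusted p = 0.734, limma), the largest difference of the set in that comparison. That value was -0.15 without the livers low in Zhx2, -0.21 without Tip30+/- 2, and -0.59 and 0.11 in a lower and an upper range of mouse tags, which are described further on. In wild type the lower range holds the livers low in Zhx2, so the tag ranges and the Zhx2 exclusion are not separate checks.

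Gclc and Gclm encode the catalytic and the modifier subunit of glutamate-cysteine ligase, the rate-limiting enzyme of glutathione synthesis. Gclc averaged 9378 ± 3279 normalized counts in Ncoa5+/-Tip30+/- livers, 9771 ± 3346 in Ncoa5+/- livers, 7807 ± 1345 in Tip30+/- livers and 7104 ± 1532 in wild-type livers. Gclm averaged 4833 ± 566 in Ncoa5+/-Tip30+/- livers, 5564 ± 1169 in Ncoa5+/- livers, 6683 ± 787 in Tip30+/- livers and 5610.4 ± 1792 in wild-type livers. The subunits did not differ in the same direction with the Ncoa5 deletion, with average log2 differences of 0.32 (adjusted p = 0.294, limma) for Gclc and -0.23 (adjusted p = 0.288, limma) for Gclm. Gclm of Ncoa5+/-Tip30+/- livers, at 4347, 4392, 5073 and 5519.6, lay wholly below that of Tip30+/- livers, at 6738, 7681, 5766 and 6548. That difference was -0.47 ± 0.19 on the log2 scale (SE, unadjusted p = 0.0226, adjusted p = 0.147, limma), and it passed with the tag range as a covariate (-0.54, adjusted p = 0.0467, limma). Of its 100-base windows, 3.09% also occur in other genes.

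Txnrd1 encodes cytosolic thioredoxin reductase. It averaged 4392 ± 503 normalized counts in Ncoa5+/-Tip30+/- livers, 4589 ± 652 in Ncoa5+/- livers, 4571 ± 397 in Tip30+/- livers and 4506 ± 324 in wild-type livers. Its average difference with the Ncoa5 deletion was -0.02 on the log2 scale, with a 95% confidence interval of -0.20 to 0.15. The values of all genotypes overlapped.

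Hmox1 encodes heme oxygenase, which degrades heme and in liver is also made by Kupffer cells, the resident macrophages. It read 318, 567, 483 and 434 normalized counts in Ncoa5+/-Tip30+/- livers and 541, 533, 748.5 and 759 in Ncoa5+/- livers. It read 530.4, 258, 480.3 and 443 in Tip30+/- livers and 709.8, 646, 328 and 199.5 in wild-type livers. Wild type held both the lowest value of the 16 and a value near the highest, and its upper pair was the pair low in Zhx2. The average difference was 0.35 with the Ncoa5 deletion (adjusted p = 0.392, limma) and -0.27 with the Tip30 deletion (adjusted p = 0.721, limma) on the log2 scale. Without the 4 livers low in Zhx2 the difference with the Tip30 deletion turned to 0.09. Ncoa5+/-Tip30+/- livers differed from Ncoa5+/- livers by -0.53 (adjusted p = 0.648, limma).

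Slc7a11 encodes the transport subunit of the cystine and glutamate exchanger and had 0 to 4 reads in each of the 16 livers, 38 in all. Its values stayed below the minimum mean of 10 normalized counts for testing, and no fold is given at this depth.

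**Figure D2:**
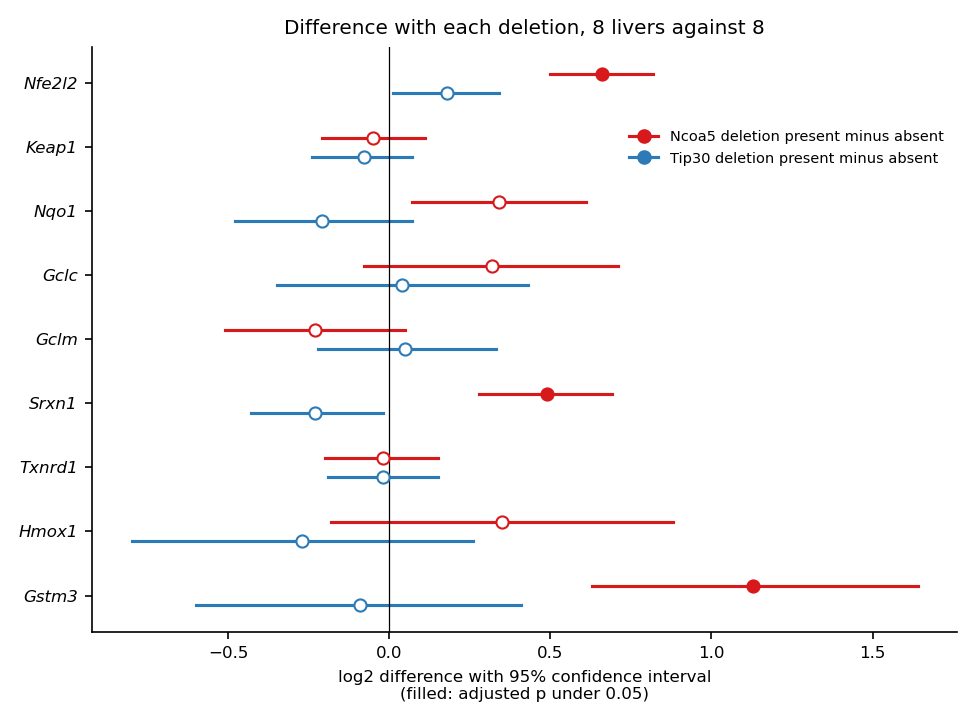
Log2 difference (horizontal axis) of the 9 tested genes with the Ncoa5 deletion (red) and with the Tip30 deletion (blue), each 8 livers against 8, with 95% confidence intervals; filled points passed an adjusted p of 0.05. Nfe2l2, Srxn1 and Gstm3 are filled for the Ncoa5 deletion and none is filled for the Tip30 deletion.

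Over the 9 tested genes, the median log2 difference with the Ncoa5 deletion was 0.34, against -0.01 over all tested genes. For Ncoa5+/- against wild type 1 was called (0.557% of all genes) with a median of 0.42, against -0.01 over all genes. In that comparison 3 of the 9 lay wholly above wild type, as 3.25% of all genes did.

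For Ncoa5+/-Tip30+/- against wild type 1 of the 9 was called (2.67% of all genes), with a median log2 difference of 0.13, against -0.01 over all genes, and 1 lay wholly above wild type (4.70% of all genes). Against Tip30+/- livers 1 was called (3.07%), with a median of 0.21, against -0.02 over all genes. There 3 lay wholly above (7.10% of all genes) and Gclm wholly below (9.05%). These comparisons share livers, so their counts are not separate evidence. The members were chosen with results of these data known, and nothing particular to the set is read from the counts.

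The Tip30 deletion gave no call in the set in the single comparisons either. For Tip30+/- against wild type 0 of 9 were called by limma, edgeR or DESeq2 (0.0131% of all genes by limma), and 0 had an unadjusted p under 0.05. Of all 15263 tested genes, 1121 had such a p. Averaged over Ncoa5 genotype, 2 of the 9, Nfe2l2 and Srxn1, had an unadjusted p under 0.05, as did 1801 of all tested genes. Between Ncoa5+/-Tip30+/- and Ncoa5+/- livers 0 were called by each tool (0.0197% by limma) and 1, Nfe2l2, had an unadjusted p under 0.05. Over all tested genes 1363 had such a p there. The interaction, which tests whether the difference with the Ncoa5 deletion depends on Tip30 genotype, called 0 by each tool (0% of all genes by limma), with 0 at an unadjusted p under 0.05. Over all tested genes 650 had such a p for the interaction. The largest interaction in the set was that of Hmox1, at -0.52 on the log2 scale (adjusted p = 0.954, limma). It was -0.77 to -0.16 with a liver left out and -1.21 without the livers low in Zhx2. By range of mouse tags it was 0.41 ± 0.50 (SE) in the lower and -1.51 in the upper. The wild-type livers of the lower range are those low in Zhx2, so the tag ranges and the Zhx2 exclusion are not separate checks.

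Levels per kilobase of exon allow the genes to be ordered within the liver. Gclc led in each genotype, with a mean of 2490.3 normalized counts per kilobase in Ncoa5+/-Tip30+/- livers, 2595 in Ncoa5+/- livers, 2073 in Tip30+/- livers and 1886 in wild-type livers. Slc7a11 closed the order at 0.188, 0.225, 0.142 and 0.134 in the same genotypes, with Nqo1 and Hmox1 next above it in each. Txnrd1 stood at 619.7 to 648 over the 4 genotype means. The place of Gstm3 varied most with genotype: it stood at 850.3 in Ncoa5+/-Tip30+/- livers, above Gclm at 768, and at 834.5 in Ncoa5+/- livers, against 365 in Tip30+/- livers, below Keap1 at 376, and 418 in wild-type livers, below Srxn1 at 504.5. On this scale the mean of Nfe2l2 exceeded that of Keap1 in Ncoa5+/-Tip30+/- livers (606 against 364) and in Ncoa5+/- livers (506 against 387), and was below it in Tip30+/- livers (360.3 against 376) and in wild-type livers (337 against 399). These orders of means did not hold in every liver. Nfe2l2 lay above Keap1 in Tip30+/- 1 (368 against 366) and Tip30+/- 3 (385 against 376). Gstm3 lay below Gclm in Ncoa5+/-Tip30+/- 1 and 4, above Keap1 in Tip30+/- 3 and 4, and above Srxn1 in wild type 2.

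Beyond the set, 69 further genes of the pathway and of antioxidant defence were examined in 8 lists, of which 68 were tested. With the Ncoa5 deletion on average, 7 of the 68 rose and 0 fell, while 3.94% of all tested genes were called higher and 7.89% called in either direction. Their median log2 difference was 0.08, against -0.01 over all genes. By list, the calls were 3 of 14 glutathione transferases, 2 of 8 tested genes of glutathione synthesis and use, 1 of 11 in conjugation and export, and 1 of 9 other antioxidant enzymes. The lists of NRF2 regulators (10 genes), thioredoxin and peroxiredoxin (5), NADPH supply (6) and heme and ferritin (5) held no call by limma, edgeR or DESeq2. Among those 4 lists, 9 genes had an unadjusted p under 0.05, as did 3979 of all 15263 tested genes.

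Ephx1, the microsomal epoxide hydrolase gene, averaged 20983 ± 4570 normalized counts in Ncoa5+/-Tip30+/- livers and 24324 ± 6106 in Ncoa5+/- livers, against 11112 ± 1053 in Tip30+/- livers and 11865 ± 2099 in wild-type livers (SD, n = 4 each). It rose 1.94-fold with the Ncoa5 deletion (adjusted p = 0.000352, limma). Sesn2, a stress-induced gene that is also a target of p53 and ATF4, averaged 724 ± 273 in Ncoa5+/-Tip30+/- livers and 794 ± 261 in Ncoa5+/- livers, against 310 ± 35.4 in Tip30+/- livers and 341 ± 77.4 in wild-type livers. It rose 2.25-fold (adjusted p = 0.000972, limma).

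The pi-class glutathione transferase genes Gstp1, Gstp2 and Gstp3 rose 1.98-fold, 2.02-fold and 1.57-fold with the Ncoa5 deletion (adjusted p = 0.00514, 0.00114 and 0.00969, limma). Gstp1 and Gstp2 share 25.1% and 46.9% of their 100-base windows with other genes, mostly each other, so the split of reads between them is uncertain, while Gstp3 shares none. Gss, the glutathione synthetase gene, rose 1.35-fold (adjusted p = 0.00734, limma), and Ggct, the gene of gamma-glutamylcyclotransferase, rose 1.39-fold (adjusted p = 0.022, limma). Among the regulators of NRF2, the largest difference was that of the small MAF gene Maff, at 0.83 on the log2 scale (adjusted p = 0.125, limma). Cul3, the ligase scaffold that works with KEAP1, stood at -0.27 (adjusted p = 0.0692, limma), the smallest p in its list.

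**Figure D3:**
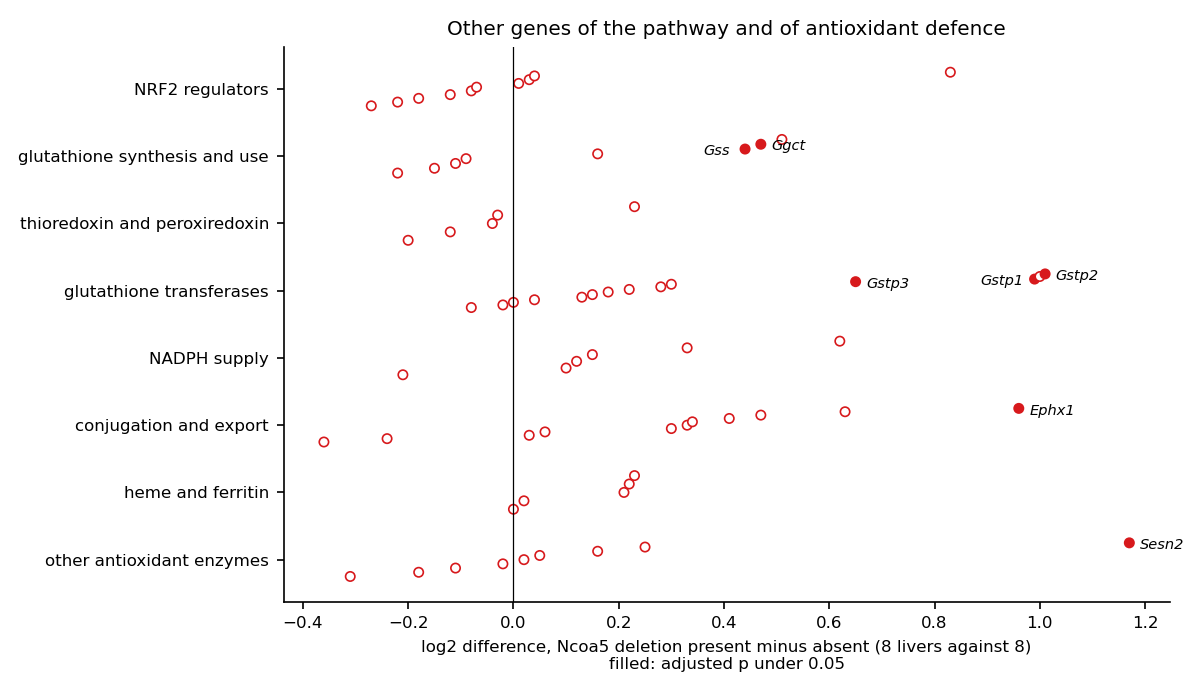
Log2 difference with the Ncoa5 deletion (horizontal axis, 8 livers against 8) of the 68 tested genes in 8 lists (vertical axis); each point is a gene, raised within its row in order of its value, and filled points passed an adjusted p of 0.05. The 7 filled genes all lie to the right of 0.

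Against wild type, Ncoa5+/- livers gave 2 calls among the 68 (0.557% of all genes), Ephx1 (log2 1.02) and Sesn2 (log2 1.18), both higher. Ncoa5+/-Tip30+/- livers gave 5 calls against wild type (2.67% of all genes), with Gss, Gstp3, Ephx1 and Sesn2 higher and Slc3a2, the heavy chain that SLC7A11 needs at the membrane, lower (log2 -0.33, adjusted p = 0.0412, limma). Against Tip30+/- livers 5 were called (3.07% of all genes), all higher, namely Gstp1, Gstp2, Gstp3, Ephx1 and Sesn2. These counts moved when a liver was left out, to between 0 and 2, between 1 and 9, and between 1 and 7 in the same order. For Tip30+/- against wild type and for the Tip30 deletion on average 0 of 68 were called by limma, edgeR or DESeq2, with 6 and 14 at an unadjusted p under 0.05. Of all 15263 tested genes, 1121 and 1801 had such a p in the same order.

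Markers of other cells moved with the Ncoa5 deletion beside these genes, in a comparison that called 3.94% of all tested genes higher. In it 3979 of all 15263 tested genes had an unadjusted p under 0.05. Of 9 lymphocyte markers 4 rose, Cd3e, Cd8a, Nkg7 and Gzmb, and their summed level was 173 to 346.5 normalized counts in Ncoa5+/-Tip30+/- livers and 223 to 312 in Ncoa5+/- livers, against 86.0 to 186 in Tip30+/- livers and 56.8 to 229 in wild-type livers. Of 6 cholangiocyte markers 1 rose by limma, Spp1, with 1 call by edgeR and 2 by DESeq2. Their summed levels were 1078 to 2114 in Ncoa5+/-Tip30+/- livers and 1127 to 1630.4 in Ncoa5+/- livers. They were 674 to 1723 in Tip30+/- livers and 603 to 923 in wild-type livers. Of 12 Kupffer cell and macrophage markers 0 were called by limma or edgeR and 3 by DESeq2, with 5 at an unadjusted p under 0.05 and summed levels of 9834 to 18993 in Ncoa5+/-Tip30+/- livers and 12196 to 22666 in Ncoa5+/- livers, against 10859 to 13745 in Tip30+/- livers and 5633 to 13376 in wild-type livers. Of 6 stellate cell markers 2 rose by limma, Col1a1 and Col3a1, with 1 call by edgeR and 2 by DESeq2. Their summed levels were 5536 to 7605 in Ncoa5+/-Tip30+/- livers and 5079.7 to 8430.5 in Ncoa5+/- livers. They were 5269 to 5849 in Tip30+/- livers and 5242 to 6538 in wild-type livers. The markers of hepatocytes (7 tested), endothelium (5), red blood cells (4) and neutrophils (2 tested of 6) gave 0 calls by each tool, with 2, 1, 2 and 2 at an unadjusted p under 0.05 in the same order. The part of the cells these markers stand for in the differences of Nfe2l2, Srxn1 and Gstm3 was not tested, and in whole liver more cells of a type cannot be told apart from more RNA per cell.

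Nfe2l2 and Srxn1 lie on chromosome 2, as Ncoa5 does. Nfe2l2 spans chr2:75675513-75704641 in GENCODE M21, 89.3 Mb from Ncoa5, and Srxn1 spans chr2:152105516-152111376, 12.9 Mb from it. Of the 348 tested genes within 20 Mb of Ncoa5, 7.47% were called with the Ncoa5 deletion, against 7.90% of the tested genes elsewhere. Gss, also called, lies 9.44 Mb from Ncoa5, and Gstm3 lies on chromosome 3. The part of the position in the values of Srxn1 and Gss was not tested.

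Within a genotype, livers also differed from each other, and some of the genes moved together. After subtraction of each genotype's mean, 45 pairs were correlated over 16 livers, and 6 pairs passed an adjusted p of 0.05 by Pearson's r and 1 by Spearman's rho, in permutations of livers within genotype. The 45 include the pairs with Slc7a11, whose reads were too few for the tests by genotype. Srxn1 and Txnrd1 passed by both measures (r = 0.775, permutation p = 0.00052, adjusted 0.0234; rho = 0.847, permutation p = 0.00065, adjusted 0.0292). Without the 2 livers farthest from the median of Srxn1 the r was 0.808.

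The subunit genes Gclc and Gclm gave r = 0.692 (rho = 0.665, adjusted permutation p = 0.0406 for r and 0.128 for rho). Gstm3 was correlated by r with Hmox1 (0.763, adjusted permutation p = 0.0406), Nqo1 (0.711, adjusted 0.0301) and Nfe2l2 (0.699, adjusted 0.0406). Their rho values were 0.679, 0.665 and 0.700, with adjusted permutation p of 0.128, 0.061 and 0.0976. Nfe2l2 and Hmox1 gave r = 0.497 (adjusted permutation p = 0.0406) and rho = 0.512 (adjusted 0.163). Without the 2 livers farthest from the median, these 6 pairs kept r between 0.472 and 0.808, but 0 of the 45 passed the adjusted threshold, so the calls rest on all 16 livers. In wild type the livers low in Zhx2 were above the mean of their genotype in Gstm3, Hmox1 and Nqo1, and the other 2 below it. Among Ncoa5+/- livers this held only for Nqo1. There Ncoa5+/- 1 lay below the mean in Hmox1 (-0.234 on the log2 scale) and Ncoa5+/- 4 below it in Gstm3 (-0.224). Without the 4 livers low in Zhx2 the 6 pairs had r of 0.653 to 0.848 over 12 livers, and 0 of the 45 passed (adjusted exact permutation p of 0.0781 or more among the 6).

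Mouse tag numbers, described further on, also moved with some of these genes: in the range of tags from 4300 up, Gclc was 1.55-fold and Gclm 1.23-fold as high as in the lower range (unadjusted p = 0.0189 for Gclm, adjusted p = 0.168, limma). With the mean of genotype and tag range removed, Gclc and Gclm gave r = 0.537 over 15 livers (rho = 0.496, exact permutation p = 0.0781 for r, adjusted 0.363). The other 5 pairs gave r of 0.637 to 0.870, with Srxn1 and Txnrd1 at 0.732 and Nfe2l2 and Gstm3 at 0.870. In that setting 0 of the 45 passed, and 384 arrangements of livers cannot give an exact permutation p below 0.0026. Srxn1 and Txnrd1 reached that p (adjusted exact permutation p = 0.117), so the setting could not call a lone pair. The pairs were chosen among genes known to respond to NRF2, and depth differed between livers.

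**Figure D4:**
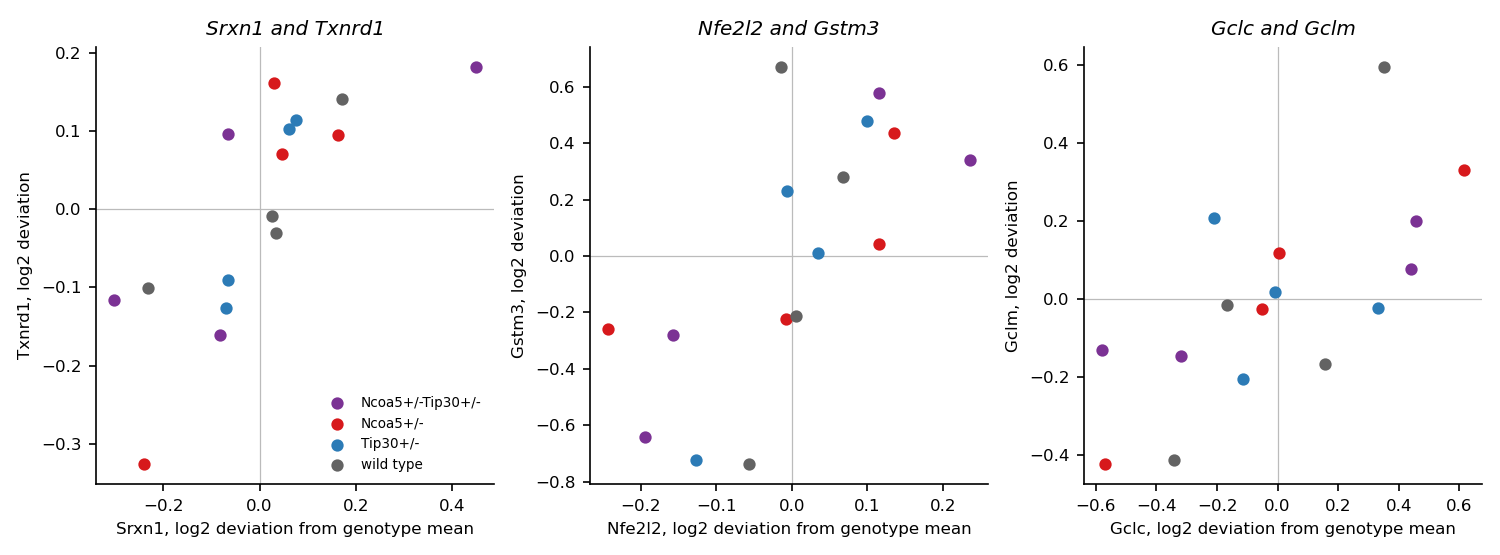
Log2 deviation of each liver from the mean of its genotype for 3 pairs of genes (axes), with 16 points colored by genotype. Srxn1 and Txnrd1 rise together with r = 0.775, Nfe2l2 and Gstm3 with r = 0.699, and Gclc and Gclm with r = 0.692.

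The labels number the mice, and the numbers fall in a range below 4300 and a range above it, each with livers of all 4 genotypes. The labels do not say what the number stands for. In wild type the lower range holds wild type 1 and 2, the livers low in Zhx2, so tag range and Zhx2 level cannot be told apart there. In a model with genotype and tag range, Gclc was 1.55-fold higher at tags above 4300 (log2 0.63 ± 0.11 SE, adjusted p = 0.00875, limma), the 1 call among the 9 tested genes (2.65% of all genes). Gclc read 12112 and 12262 normalized counts in the Ncoa5+/-Tip30+/- livers of the upper range, against 7158 and 5982 in those of the lower range. In Ncoa5+/- livers it read 14343 and 9394 in the upper range, against 9043 and 6305 in the lower. In the Tip30+/- liver of the upper range it read 9730.4, against 7675, 6679.5 and 7144 in the lower, and in wild-type livers 7779.6 and 8908, against 6219.5 and 5507. The upper range was thus higher within each genotype.

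Within the tag ranges the differences with the Ncoa5 deletion were 0.63 in the lower and 0.69 in the upper range for Nfe2l2 on the log2 scale, and 0.46 and 0.48 for Srxn1. For Gstm3 the difference was 0.90 in the lower range and larger in the upper. Hmox1 differed by -0.13 ± 0.25 (SE) in the lower range and by 0.80 in the upper, and Gclc by 0.12 and 0.40. The wild-type livers of the lower range are those low in Zhx2, and the only Tip30+/- liver of the upper range is Tip30+/- 4. The differences of Nfe2l2, Srxn1 and Gstm3 thus had the same sign in both ranges. That of Hmox1 was smaller than its SE in the lower range, so no change of sign is read from it.

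**Figure D5:**
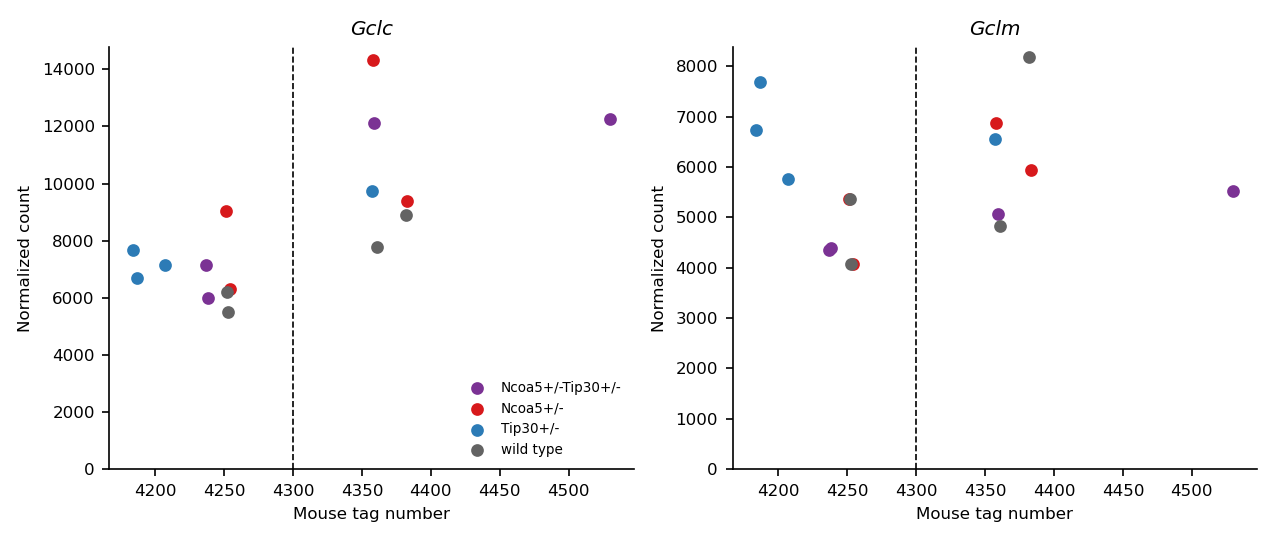
Normalized count (vertical axis, from 0) of Gclc and Gclm in each liver against the mouse tag number in the labels (horizontal axis), colored by genotype; the dashed line stands at 4300. Within each genotype Gclc is higher to the right of the line, where it was 1.55-fold higher in the model.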

How the data were processed

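The deposited table holds a signal per gene and library, which per the labels is the read count after division by the DESeq2 size factor of that library. The submitters' processing notes name Trimmomatic 0.36, STAR 2.6.0c, DESeq2 1.28.1 and GRCm38. The gene counter was not given in the sources used here, nor was strand marking. In each library 100% of the deposited values, within 1e-04, were an integer times the same smallest step, so whole reads were recovered for the count tests.

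Genes averaging 10 or more normalized counts, 15263 in all, were tested with limma 3.58.1 (trend and robust) in R 4.3.3, on log2 of the value plus 1, as 4 group means over 16 livers. Tests were 2-sided, with Benjamini-Hochberg adjustment over all tested genes per comparison, and a call is an adjusted p under 0.05. Fold changes are powers of 2 of the fitted difference and understate those of low genes. The limma p-values weigh a difference against the spread between mice of a genotype, pooled over the 4 genotypes and moderated across genes. edgeR 4.0.16 (quasi-likelihood) and DESeq2 1.42.0 on the recovered reads were alternatives, beside other values added (0.5 and 5), filters (none, mean of 50), TMM and upper-quartile scaling, a tag covariate, moderation that is not robust, the groups alone and each liver left out. The alternatives without the livers low in Zhx2, with Spearman's rho, and by or after removal of tag range were chosen after seeing the data. The calculation was tested on simulated data.

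The 10 genes and the lists were chosen with earlier results of these data known. Each of the 10 is given with its level, and with its difference where the unadjusted p was under 0.05 or the difference was the largest of the set. Of the lists, called genes are named, or the gene of smallest p. Differences of Keap1, Gclc, Gclm, Txnrd1 and Hmox1 beyond that rule, and Maff, were added after their values were seen. Exon positions come from GENCODE M21 and promoter windows from RefSeq.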

Additional observations from a re-analysis of the deposited data

Results flagged for a closer look

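Among 40 groups of 4 livers, 1 liver stood apart from the other 3 of its group by more than Dixon's critical value at the 95% level, and chance gives about 1 in 20 such groups. Slc7a11 read 4.76 normalized counts in Ncoa5+/-Tip30+/- 1, against 1.73 to 2.06 in the other 3 livers of that genotype. Those are 4 reads against 2, 2 and 2.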

How the results depend on the processing

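No paired analysis was possible because the labels number the mice individually and give no number shared between genotypes. The Ncoa5 deletion on average called the same number, 3 genes, in each alternative run, and with each of 16 livers left out (3 to 3). Calls over all genes there were 1205 in the main run, 602 without the livers low in Zhx2, 1891 with DESeq2 and 1937 with the tag covariate. With a liver left out they ran from 610 to 1602. Over 27 alternatives the log2 difference with the Ncoa5 deletion was 0.62 to 0.70 for Nfe2l2, 0.41 to 0.56 for Srxn1 and 1.01 to 1.32 for Gstm3. The adjusted p in these limma, edgeR and DESeq2 runs was at most 0.0054, 0.0246 and 0.0329 in the same order. For Ncoa5+/- against wild type the count of 1 fell to 0 with the groups alone and also when the livers low in Zhx2 were left out, and was 0 to 1 with a liver left out. Over all genes the main run called 85 there, the groups alone 56 and the run without the livers low in Zhx2 29. For Ncoa5+/-Tip30+/- against wild type it was 2 with DESeq2, which called 1099 of all genes there, against 407 in the main run. Against Tip30+/- livers the count of 1 became 2 with upper-quartile scaling, 4 with the tag covariate, 2 with edgeR and 3 with DESeq2, and was 1 to 2 with a liver left out (2 without Ncoa5+/-Tip30+/- 1 or 4). Calls over all genes there were 469 in the main run and, in the same order, 434, 1344, 407 and 1145. The higher counts with the tag covariate and DESeq2 thus came with more calls over all genes. Of the correlated pairs, 6 in number, 0 passed without the 2 farthest livers or without the livers low in Zhx2, and 1 by Spearman's rho. With the mean of genotype and tag range removed 0 passed, but there the lowest possible exact permutation p is 0.0026. Srxn1 and Txnrd1 reached it (adjusted exact permutation p = 0.117), so that setting could not call a lone pair. The Hmox1 difference with the Tip30 deletion reversed to 0.09 without the livers low in Zhx2. The cause of these shifts was not tested. Among the 68 other genes, counts became 12 with the tag covariate for the Ncoa5 deletion (7), 0 with the groups alone or without the livers low in Zhx2 for Ncoa5+/- against wild type (2), 12 with DESeq2 and 1 with the groups alone or without the livers low in Zhx2 for Ncoa5+/-Tip30+/- against wild type (5), and 9 with the tag covariate or DESeq2 against Tip30+/- (5). Calls over all genes moved as well. For the Ncoa5 deletion they went from 1205 to 1937 with the tag covariate. For Ncoa5+/-Tip30+/- against wild type they went from 407 to 107 with the groups alone and to 121 without the livers low in Zhx2. The depth limits Slc7a11, at 0 to 4 reads per liver.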
